A study of Homo sapiens with 8 samples.

Results

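Expression of 7 transcription factors that specify and maintain endoderm, *SOX17*, *GATA4*, *GATA5*, *GATA6*, *FOXA1*, *FOXA2* and *HNF4A*, was examined in HCT116, a human colorectal cancer cell line. The members were every non-control probe whose gene name on the array is 1 of these 7 symbols, which gave 11 probes for 7 of the 34423 gene names on the array. RNA from 4 stable HCT116 clones was hybridized to 8 1-color microarrays, each clone once untreated and once exposed for 72 h to 1 µM of the drug 5-aza-dC (decitabine). CONT1 and CONT2 carry a control plasmid, pcDNA6.2-GW/EmGFP-miR-neg, and TET1-KD1 and TET1-KD2 carry an artificial miRNA against *TET1* (miTET1-1 or miTET1-2) from the same kind of plasmid. All 4 are GFP-positive isolates from G418 selection, and each is a single clone. Each condition therefore has n = 2 clones, with 1 array per clone, so that p-values measure the spread between clones of a kind and not between repeat cultures. Conditions follow the sample titles, because another label gives mock for all control arrays and 5-aza-dC for all knockdown arrays.

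SOX17 is an SRY-related factor of definitive endoderm, and it also restrains WNT signaling by binding beta-catenin. The GATA factors bind GATA motifs in endoderm and heart, and GATA6 stays on in adult colonic epithelium while *GATA4* and *GATA5* are often silenced by promoter methylation in colorectal cancer. FOXA1 and FOXA2 are pioneer factors that open chromatin for liver and gut genes, and HNF4A is a nuclear receptor that drives hepatocyte and intestinal genes. 5-aza-dC is a cytidine analog that traps DNA methyltransferases and lowers DNA methylation as cells divide, and TET1 is a dioxygenase that oxidizes 5-methylcytosine.

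DNA methylation lies mainly at CG dinucleotides, so these were counted in the bases before the start sites. The RefSeq promoter table (GRCh38.p14) holds *GATA6*, *FOXA1* and *HNF4A*, the last with 2 starts, and no entry for the other 4 members. The 250 bases upstream of each start are given 5′ to 3′ in the direction of the gene, with every CG in capitals.
*GATA6* start, chr18:22169339-22169588, + strand: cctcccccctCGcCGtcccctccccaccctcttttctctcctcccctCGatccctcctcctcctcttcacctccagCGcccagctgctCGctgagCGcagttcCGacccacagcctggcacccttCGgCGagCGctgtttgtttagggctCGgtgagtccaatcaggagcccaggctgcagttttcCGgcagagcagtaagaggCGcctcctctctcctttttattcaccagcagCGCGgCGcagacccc
*FOXA1* start, chr14:37595250-37595499, - strand: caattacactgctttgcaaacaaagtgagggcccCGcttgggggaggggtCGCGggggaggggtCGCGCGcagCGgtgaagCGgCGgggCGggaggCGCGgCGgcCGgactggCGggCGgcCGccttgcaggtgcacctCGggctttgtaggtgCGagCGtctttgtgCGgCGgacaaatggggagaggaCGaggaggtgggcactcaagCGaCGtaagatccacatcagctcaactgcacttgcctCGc
*HNF4A* upstream start, chr20:44355449-44355698, + strand: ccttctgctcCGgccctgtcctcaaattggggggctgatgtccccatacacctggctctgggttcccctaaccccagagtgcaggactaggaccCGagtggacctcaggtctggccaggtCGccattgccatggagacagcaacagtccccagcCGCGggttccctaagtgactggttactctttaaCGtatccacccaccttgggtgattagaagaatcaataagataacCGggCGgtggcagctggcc
*HNF4A* downstream start, chr20:44400989-44401238, + strand: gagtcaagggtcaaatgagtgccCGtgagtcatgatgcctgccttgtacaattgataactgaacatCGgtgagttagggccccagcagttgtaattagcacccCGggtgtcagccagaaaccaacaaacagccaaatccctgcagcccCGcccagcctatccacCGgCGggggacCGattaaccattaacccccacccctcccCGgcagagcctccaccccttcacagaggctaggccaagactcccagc
The *FOXA1* window holds 26 CG dinucleotides, and 19.6% of the 35116 promoters in the table hold at least as many in their 250 upstream bases. The *GATA6* window holds 16, a number reached by 41.0% of promoters. Both *HNF4A* windows hold 8, which 56.3% of promoters reach, against a median of 11. No methylation was analyzed here, and the counts describe the sequence alone.

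Signals are given as log2 of the processed intensity after each array was scaled to its 75th percentile, and a level of 1 probe is not set against that of another. Tests were run on the 27286 probes that stood well above background in both clones of some condition. The arrays of treated CONT1 and CONT2 were on slide 2, scanned 230 days after slide 1, which held the other 6 arrays. For the control clones slide and treatment cannot be told apart, whereas both conditions of the knockdown clones lay on slide 1. Before this scaling, the 10 spike-in transcripts read lower on slide 2, with log2 differences of −0.02 to −1.004. The 75th percentile was also lower there, at 396 and 476 against 546 to 624 on slide 1. The scaling shifts all signals of an array by the same amount, while the spike-in differences varied between transcripts. It therefore changes these differences and cannot remove all of them. The largest were −1.004 for the transcripts that read 7.91 and 9.36 on slide 1. *TET1*, the targeted gene, was measured by 3 probes. In the order CONT1, CONT2, TET1-KD1 and TET1-KD2, which is used throughout, the brightest read 9.70, 9.75, 8.65 and 9.41 untreated and 9.64, 9.64, 8.99 and 9.48 after 5-aza-dC. Untreated knockdown clones were lower by this probe, with a log2 difference of −0.69 ± 0.29 (SE, limma adjusted p = 0.61), and by a second (−0.98, adjusted p = 0.58). By the third, above background in untreated control clones alone, they were at least 1.20-fold lower (fitted log2 difference −2.14, adjusted p = 0.37). That bound sets the control mean against the lowest signal above background on the untreated knockdown arrays. None of the 3 passed the threshold of an adjusted p of 0.05. By RT-qPCR, which was not examined here, the paper reports reduced *TET1* mRNA in both knockdown clones, with the greater reduction in TET1-KD1. The cells carried 6 of 8 colorectal epithelial markers well above background on all 8 arrays (*EPCAM*, *CDH1*, *KRT8*, *KRT18*, *KRT19* and *CDX2*).

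The members differed in their pattern. *SOX17*, *GATA5* and *FOXA2* were at or near background without drug and bright after 5-aza-dC in all 4 clones. *GATA4* read above background after 5-aza-dC by some of its probes, *GATA6* and *FOXA1* were above background throughout, and *HNF4A* never rose above background. The plot of the 7 members by array shows these levels.

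**Figure D1:**
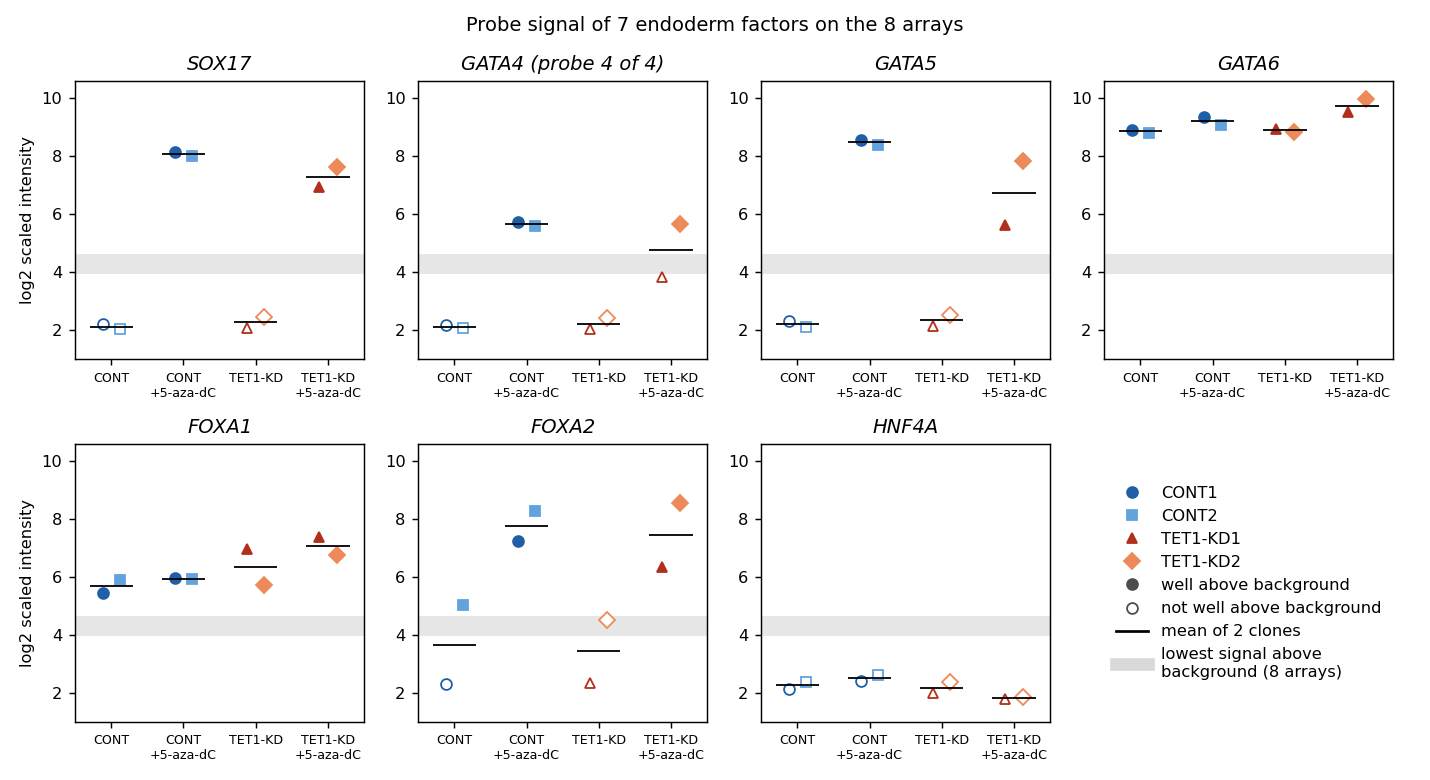
Log2 scaled intensity of 1 probe per member on the 8 arrays (y axis), by condition (x axis, 2 clones each). Points are single arrays, filled where the probe was well above background, bars are means of 2 clones, and the gray band spans the lowest signal above background on the 8 arrays (3.98 to 4.61). Levels compare arrays within a panel only. *SOX17* and *GATA5* go from open points near 2 to filled points on all 4 treated arrays, *GATA6* stays between 8.82 and 9.97, and *HNF4A* has open points throughout.

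*SOX17* (probe at chr8:55372791-55372850, hg19, plus strand) read 2.20 in CONT1, 2.04 in CONT2, and 2.08 and 2.46 in TET1-KD1 and TET1-KD2 without drug, none of them well above background. After 5-aza-dC it read 8.15, 8.0, 6.95 and 7.61 in the same clones, all well above background. Treated and untreated arrays did not overlap. Measured means rose from 2.12 ± 0.11 to 8.08 ± 0.11 (SD, n = 2) in the control clones and from 2.27 ± 0.27 to 7.28 ± 0.47 (SD, n = 2) in the knockdown clones. Because the untreated level is only bounded by the background, the rise was at least 13.6-fold in the control clones (limma adjusted p = 5.5e-05) and at least 7.37-fold in the knockdown clones (limma adjusted p = 0.00014). Here and below such a bound sets the treated mean against the lowest signal above background on each untreated array. The adjusted p-values printed beside such bounds test fitted log2 changes, here 5.96 and 5.01, and not the bounds. The fits use the untreated signals as they were read, so their spread is that of signals not above background. On the same untreated arrays *PDX1*, which was above background on no array, read 2.20, 2.04, 2.07 and 2.46.

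*GATA5* (chr20:61038572-61038631, minus strand) behaved much as *SOX17* did in the control clones. It read 2.30, 2.10, 2.15 and 2.52 in untreated CONT1, CONT2, TET1-KD1 and TET1-KD2, none well above background, and 8.57, 8.40, 5.62 and 7.84 after 5-aza-dC. The treated arrays were all above background and above every untreated array, with TET1-KD1 the lowest of the 4. The rise was at least 18.0-fold in the control clones (limma adjusted p = 0.00095) and at least 5.03-fold in the knockdown clones (limma adjusted p = 0.0087). The treated knockdown clones lay farther apart (SD 1.57, n = 2) than the treated control clones (SD 0.12, n = 2).

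*FOXA2* (chr20:22562164-22562223, minus strand) differed from the pair above in its untreated levels. It read 2.30, 5.02, 2.35 and 4.53 without drug, and only the CONT2 array was well above background. After 5-aza-dC it read 7.24, 8.26, 6.34 and 8.54, above background on all 4 arrays and above every untreated array. CONT2, the control clone above background before treatment, was also the higher control clone after it. The fitted log2 change was 4.09 ± 1.21 in the control clones (SE, limma adjusted p = 0.037), and its untreated mean holds the CONT1 signal that was not above background. In the knockdown clones it was at least 8.22-fold (limma adjusted p = 0.088, fitted log2 change 4.0 ± 1.21), which did not pass the threshold. With each clone compared with its own untreated array, which takes up the difference between the clones, the *FOXA2* change passed in both kinds (adjusted p = 0.0054 in the control and 0.013 in the knockdown clones). The call in the control clones was lost without the untreated CONT1 array (log2 change 2.73, adjusted p = 0.16), without the treated CONT1 array (4.60, adjusted p = 0.083) and without the treated CONT2 array (3.57, adjusted p = 0.15). It was also lost with no filter on dim probes (adjusted p = 0.065) and by the methods' t-test (adjusted p = 0.18).

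*GATA4* has 4 probes on the array, and they did not give the same answer. The plot of its probes orders them by position. The fourth, at chr8:11617080-11617139, read 2.18, 2.06, 2.03 and 2.40 untreated and 5.73, 5.60, 3.85 and 5.67 after 5-aza-dC in CONT1, CONT2, TET1-KD1 and TET1-KD2. It was above background on 3 of the 4 treated arrays, with TET1-KD1 not above it. This probe rose at least 2.55-fold in the control clones (limma adjusted p = 0.0038). It was also called in the knockdown clones (limma adjusted p = 0.033), where 1 of 2 treated arrays measured it, so that no fold is given. The third probe, at chr8:11616543-11616602, has the highest mean of the tested pair and so stands for the gene in the counts. It read 2.15, 3.44, 3.095 and 4.19 untreated and 5.65, 3.60, 4.47 and 5.24 after 5-aza-dC, and its changes did not pass (limma adjusted p = 0.11 in the control and 0.38 in the knockdown clones). The treated CONT2 array separates the probes, at 3.60 by the third and 5.60 by the fourth. Without that array the third probe passed in the control clones (log2 change 2.86, adjusted p = 0.040). The first probe, at chr8:11558173-11558232 and designed to another transcript, was above background only in treated TET1-KD1 (4.35), and the second, at chr8:11615925-11615984, on no array, so neither was tested.

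**Figure D2:**
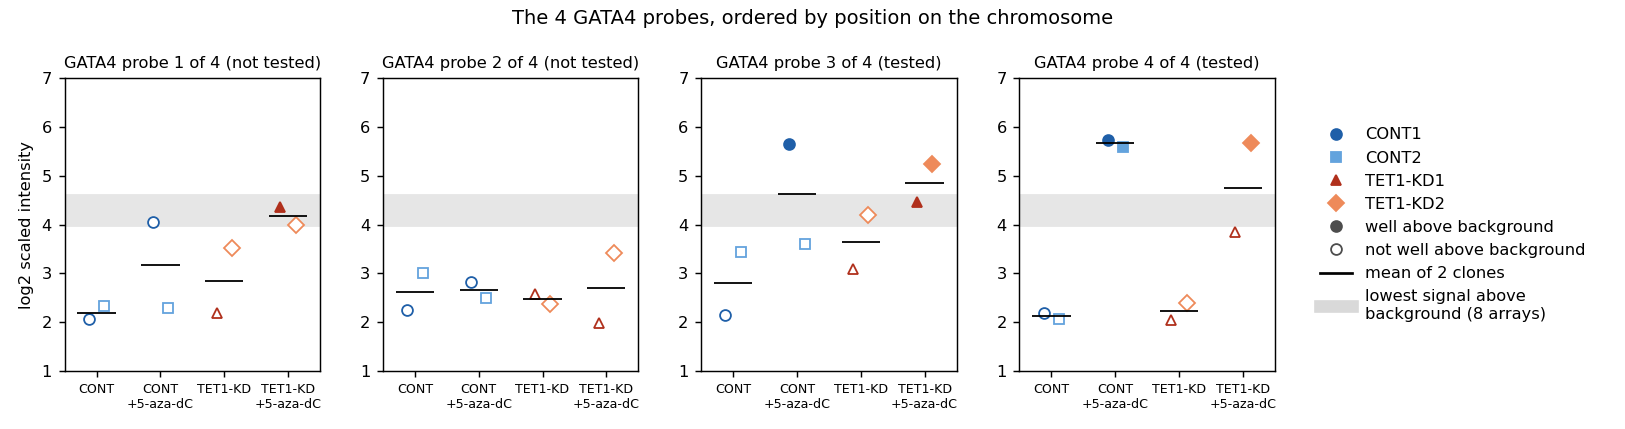
Log2 scaled intensity of the 4 *GATA4* probes on the 8 arrays (y axis), by condition (x axis), drawn as in the plot of members. The fourth probe reads 5.60 to 5.73 on the treated control arrays, the third reads 5.65 and 3.60 there, and the first and second stay at or below 4.35 on all arrays.

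*GATA6* (chr18:19781793-19781852, plus strand) was well above background everywhere. It read 8.92, 8.82, 8.96 and 8.84 without drug and 9.35, 9.09, 9.52 and 9.97 after 5-aza-dC in CONT1, CONT2, TET1-KD1 and TET1-KD2. The 4 untreated arrays ranged from 8.82 to 8.96, below all 4 treated arrays. The log2 change was 0.36 ± 0.20 in the control clones (SE, limma adjusted p = 0.20) and 0.84 ± 0.20 in the knockdown clones (SE, limma adjusted p = 0.047). The second call rested on a narrow margin, since it was lost under 13 of 20 alternatives (adjusted p up to 0.33), among them each clone compared with its own untreated array (adjusted p = 0.058).

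*FOXA1* (chr14:38059546-38059605, minus strand, 10 spots averaged) was also above background on all 8 arrays. It read 5.46, 5.88, 6.97 and 5.70 untreated and 5.95, 5.92, 7.37 and 6.75 after 5-aza-dC. TET1-KD1 had the highest level in both states, and treated and untreated arrays overlapped. Neither the change in the control clones (0.26 ± 0.44, adjusted p = 0.66) nor that in the knockdown clones (0.73 ± 0.44, adjusted p = 0.34) passed the threshold. A second *FOXA1* probe, at chr14:38064461-38064520 and designed to another transcript, was above background on no array.

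*HNF4A* was not detected. Its single probe, whose 60 bases are split between the ends of chr20:43036102-43042379, read 2.11, 2.39, 1.98 and 2.36 untreated and 2.40, 2.62, 1.80 and 1.86 after 5-aza-dC. No array was well above background, so no change was tested. One probe does not cover all *HNF4A* transcripts, and those that lack its bases were not measured.

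Of the 7 members, 6 had a tested probe, and 4 of these (*SOX17*, *GATA4*, *GATA5* and *FOXA2*) passed the filter only through treated arrays, so that a higher treated level was built into their selection. In the control clones 3 tested members were called higher and none lower, where 20.5% of 19687 tested genes were called higher and 21.3% lower. In the knockdown clones 3 were called higher and none lower, where 9.44% of genes were called higher and 3.09% lower. Among the 2151 genes that passed only through treated arrays, 70.4% were called higher with the drug in CONT clones and 54.4% in TET1-KD clones, so the members' calls are not read as particular to them. The members called were *SOX17*, *GATA5* and *FOXA2* in the control clones, and *SOX17*, *GATA5* and *GATA6* in the knockdown clones. With any tested probe accepted, *GATA4* joined them in both kinds.

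Untreated knockdown and control clones were then compared, which asks whether less TET1 alone changes these genes. No member was called (0 of 6 by limma), and 0.0203% of all genes were called in either direction. An unadjusted limma p below 0.05 was reached by 0 of 6 members and by 2253 of 27286 tested probes. Log2 differences were 0.03 ± 0.20 for *GATA6* and 0.66 ± 0.44 for *FOXA1*, the members above background on all untreated arrays. For *SOX17*, *GATA4* and *GATA5* no untreated array was above background in either kind, so no difference could be measured.

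The study asked whether TET1 knockdown clones respond less to 5-aza-dC. For *SOX17*, *GATA4* and *GATA5* no untreated array was above background, so a clone's rise has no measured size and the clones are not ordered by it. Their treated levels, given above, were higher in both control clones than in both knockdown clones for *SOX17* and *GATA5*, with TET1-KD1 the lowest. For *GATA4* the treated clones overlapped by the third and by the fourth probe. Both arrays of every clone measured *GATA6*, which changed by 0.44, 0.27, 0.56 and 1.13 on the log2 scale, more in both knockdown clones than in both control clones, and *FOXA1*, which changed by 0.49, 0.04, 0.40 and 1.05 with no such order. The *FOXA2* change was measured on both arrays in CONT2 alone (3.24). The treated control arrays lay on another slide than the treated knockdown arrays. In these orders of the clones, slide and kind of clone therefore cannot be told apart. How often other genes show such orders was not counted, so the orders are not read as a weaker or stronger response.

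For the fitted difference in response 5.27% of all genes were called in either direction at the adjusted threshold. An unadjusted limma p below 0.05 was reached by 6743 of 27286 tested probes and by 1 of 6 members, *SOX17*. That member is therefore not read as standing out from the array. The fitted difference passed the adjusted threshold for no member (0 of 6 by limma). It was −0.94 ± 0.37 for *SOX17* (SE, adjusted p = 0.18), −1.89 ± 0.93 for *GATA5* (adjusted p = 0.27), −1.003 ± 0.77 for the fourth *GATA4* probe (adjusted p = 0.47), −0.09 ± 1.70 for *FOXA2* (adjusted p = 0.98), 0.49 ± 0.29 for *GATA6* (adjusted p = 0.34) and 0.46 ± 0.62 for *FOXA1* (adjusted p = 0.69). For all but *GATA6* and *FOXA1* these values subtract untreated signals that were not above background, other than that of *FOXA2* in CONT2, and so describe the fit and not a measured difference. Without treated TET1-KD2 the *GATA5* difference passed (−3.01, adjusted p = 0.036), and it then rested on TET1-KD1 alone. Treated control arrays enter these differences from slide 2. With slide 2 adjusted on the spike-ins they were −1.02 for *SOX17* (adjusted p = 0.14) and −1.97 for *GATA5* (adjusted p = 0.24), and the part of the slide beyond that was not tested. In bulk RNA, fewer cells that express a gene and less RNA per cell cannot be told apart.

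**Figure D3:**
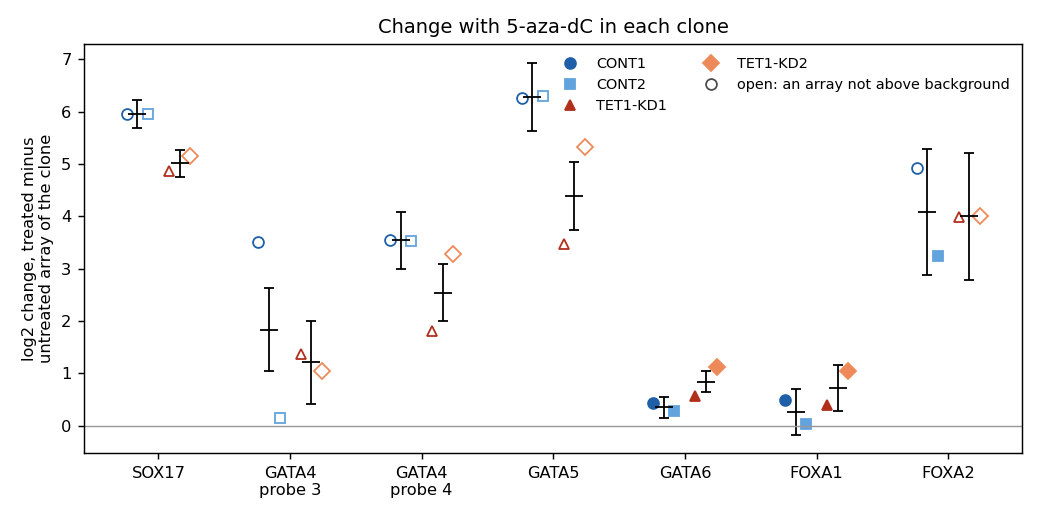
Log2 change of each clone, treated minus untreated array (y axis), for the 7 tested member probes (x axis, *GATA4* probes numbered by position). Colored points are clones, filled where both arrays of the clone were well above background and open where 1 or both were not, and black bars are the fitted change of each kind of clone ± SE from limma. Filled points show *GATA6* and *FOXA1* in all clones and *FOXA2* in CONT2, while all points of *SOX17*, *GATA4* and *GATA5* are open and are not measured changes.

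The genes most like each called member over the 8 arrays, by the root mean square difference of centered log2 signals, were found as a description, with no test. *SOX17* was nearest to *ACOT4* (0.08), an acyl-CoA thioesterase, *CLDN11* (0.13), a tight junction claudin, and *NINJ2* (0.18). *GATA5* was nearest to *NPTX1* (0.28), *VEGFC* (0.34) and *GDF10* (0.34). *GATA6* was nearest to *SNORD49A* (0.12), *BEST2* (0.12) and *ARID3A* (0.14), and *FOXA2* to *C14orf34* (0.51), *PTGER1* (0.59) and *CSF1R* (0.61). All 12 had positive fitted changes with 5-aza-dC in both kinds of clone, which their choice by likeness to rising members builds in. *SOX17* and *GATA5* were above background on no untreated array, and any gene at background there would be alike on those arrays. The likeness is therefore not read as shared regulation.

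The wider network was followed in lists of relatives, upstream signals and targets, where 1 probe stood for each gene. Over all tested genes the median log2 change was −0.05 in the control and −0.06 in the knockdown clones, and the shares of genes called are those given above (20.5% higher and 21.3% lower, and 9.44% and 3.09%). Of the tested genes, 0 of 4 relatives, 1 of 9 Nodal and mesendoderm genes, 2 of 14 gut and liver factors, 4 of 8 hepatic and intestinal genes and 3 of 9 extraembryonic endoderm genes passed the filter only through treated arrays, the class in which 70.4% and 54.4% were called higher. Among 8 relatives, 4 were tested and none was called with 5-aza-dC, with medians of 0.17 and 0.36. *GATA2* and *GATA3*, the hematopoietic and epithelial GATA factors, were above background on all arrays and did not pass. *ZFPM1*, a GATA cofactor, changed by 0.32 ± 0.29 in the control clones (adjusted p = 0.41), and *FOXA3* by −0.03 ± 0.25 (adjusted p = 0.93). *GATA1* and *ZFPM2* were above background on no array.

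Of 16 genes of Nodal signaling and mesendoderm, which act upstream of or beside SOX17 in the embryo, 9 were tested. In the control clones 3 rose and 1 fell, in the knockdown clones 2 rose and none fell, and the medians were −0.03 and 0.46. *LHX1*, a homeobox gene of the organizer, rose by 3.70 ± 0.56 in the control clones (adjusted p = 0.0038) and by 3.62 ± 0.56 in the knockdown clones (adjusted p = 0.010). *GSC*, another organizer homeobox gene, was above background on the treated arrays alone and rose at least 2.83-fold (adjusted p = 0.00010) and at least 2.23-fold (adjusted p = 0.00027). *CXCR4*, a chemokine receptor used as a surface marker of definitive endoderm, rose in the control clones (3.55 ± 1.06, adjusted p = 0.037) and did not pass in the knockdown clones (2.34 ± 1.06, adjusted p = 0.21). *FOXH1*, the DNA-binding partner of SMADs in Nodal signaling, fell at least 3.81-fold in the control clones (adjusted p = 0.0027). *NODAL* was above background on the treated arrays of CONT2 and TET1-KD2 only, and *TDGF1*, *GDF3*, *T* and *CER1* on no array. *SMAD3* changed by 0.16 in the control clones (adjusted p = 0.79). *SMAD4* changed by −0.62 (adjusted p = 0.071) by its brightest probe, while its other probes fell by 0.72 (adjusted p = 0.037) and 0.77 (adjusted p = 0.0060).

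Of 18 gut and liver transcription factors 14 were tested. In the control clones 2 rose and 3 fell, in the knockdown clones 3 rose and none fell, and the medians were 0.07 and 0.48. *SOX9*, a factor of intestinal crypt progenitors, rose by 0.91 ± 0.18 in the control clones (adjusted p = 0.010) and did not pass in the knockdown clones (0.65, adjusted p = 0.073). *NR1H4*, the bile acid receptor FXR, rose at least 3.69-fold in the knockdown clones (adjusted p = 0.045), and its fitted change in the control clones was 2.39 (adjusted p = 0.075). *CDX2*, the homeobox factor of the intestine, and *MNX1* were the brightest that did not pass, with 0.24 (adjusted p = 0.34) and 0.26 (adjusted p = 0.64) in the control clones. *PDX1*, *PROX1* and *ISX* were above background on no array.

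Of 28 hepatic and intestinal genes that these factors can activate, 8 were tested and 16 were above background on no array. The undetected ones included *APOB*, *APOC3* and *TTR*, which HNF4A activates in hepatocytes, and *ALB*, *AFP* and *FABP1*. Among the tested, 4 rose and 3 fell in the control clones and 4 rose in the knockdown clones, with medians of 1.41 and 1.53. *TFF2*, a trefoil peptide of gastric mucus, rose at least 30.0-fold in the control clones (adjusted p = 0.00060) and at least 13.6-fold in the knockdown clones (adjusted p = 0.0036). *TFF3*, the trefoil peptide of goblet cells, rose by a fitted 5.31 ± 0.86 (adjusted p = 0.0046) and 3.59 ± 0.86 (adjusted p = 0.047), with 1 of 2 untreated arrays of each kind above background. By 1 of its 2 other probes the rise in the knockdown clones did not pass (1.23, adjusted p = 0.53). *MUC2*, the goblet cell mucin, fell at least 5.72-fold in the control clones (adjusted p = 0.00090) and changed by −0.70 in the knockdown clones (adjusted p = 0.19). *SERPINA1* changed by 0.74 (adjusted p = 0.14) and 1.15 (adjusted p = 0.094).

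Of 13 extraembryonic endoderm genes 9 were tested. In the control clones 2 rose and 1 fell, in the knockdown clones 1 rose, and the medians were 0.76 and 0.57. *SPARC*, a matrix glycoprotein abundant in parietal endoderm, rose by a fitted 5.25 ± 0.65 in the control clones (adjusted p = 0.0018), where untreated CONT2 was not above background, and at least 7.70-fold in the knockdown clones (adjusted p = 0.0072). *COL4A1*, a basement membrane collagen, rose at least 2.14-fold in the control clones (adjusted p = 0.0058) and did not pass in the knockdown clones (0.57, adjusted p = 0.15). *AMN*, the membrane anchor of the cubilin receptor, fell by 1.45 ± 0.18 in the control clones (adjusted p = 0.0020) and changed by −0.05 in the knockdown clones (adjusted p = 0.89). *LAMB1* and *LAMC1* changed by 0.76 (adjusted p = 0.28) and 0.41 (adjusted p = 0.43) in the control clones, and a second *LAMB1* probe fell by 0.62 (adjusted p = 0.028). *LINC00261*, the noncoding RNA encoded beside *FOXA2*, was above background on no array, although *FOXA2* was on all treated ones.

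**Figure D4:**
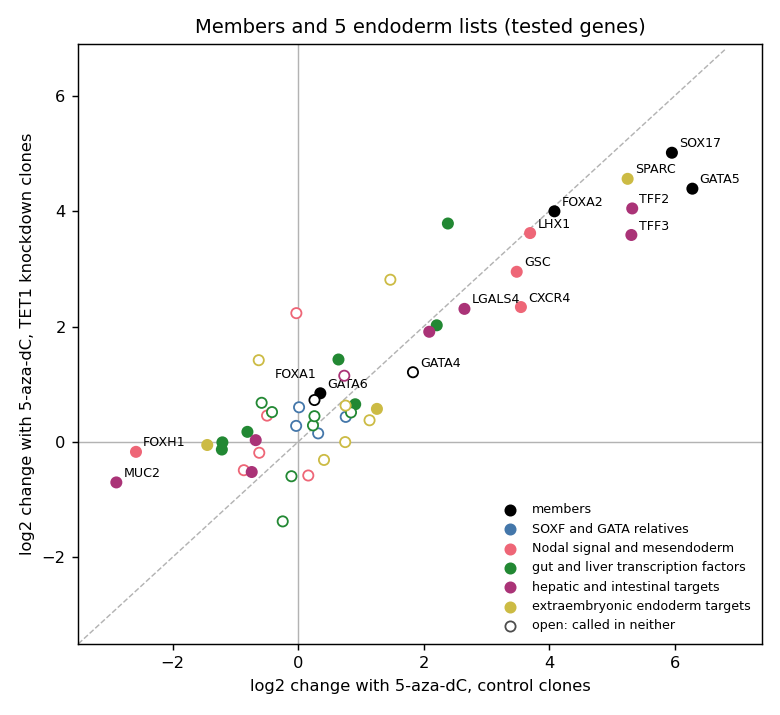
Log2 change with 5-aza-dC in the control clones (x axis) and the knockdown clones (y axis) of the tested members (black) and of the tested genes of 5 lists (colors). Each point is a gene's brightest tested probe, filled where it was called in either kind, the dashed line marks equal changes, and members and genes past 2.5 in the control clones are named. *SOX17*, *GATA5* and *FOXA2* lie at the upper right with *TFF2*, *TFF3* and *SPARC*.

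Markers of cell types that HCT116 cultures should not hold moved with 5-aza-dC as well. The mean log2 signal of 4 leukocyte markers per array was 4.37 to 5.17 in untreated and 7.32 to 7.503 in treated control clones, and 4.28 to 4.66 and 6.11 to 6.41 in the knockdown clones. Of these, *PTPRC* was above background on all 8 arrays and *CD3E* on the untreated CONT1 array only. That *PTPRC* probe rose by 1.56 in the control clones (adjusted p = 0.015), while its other tested probe changed by −0.74 (adjusted p = 0.014). The mean of 5 fibroblast markers went from 3.71 to 3.78 in untreated to 5.31 to 5.43 in treated control clones, and from 3.60 to 3.82 to 4.71 to 5.07 in the knockdown clones, with *COL1A2* and *COL3A1* above background on no array. The mean of 3 endothelial markers went from 4.53 to 4.54 to 5.41 to 6.10, and from 4.37 to 4.38 to 5.11 to 6.18. Among these, *CDH5* fell by a fitted 2.10 in the control clones (adjusted p = 0.019) and changed by −0.28 in the knockdown clones (adjusted p = 0.77). *PECAM1* and *VWF* rose in the control clones by a fitted 3.49 (adjusted p = 0.017) and 2.27 (adjusted p = 0.0012). A second *VWF* probe changed by −1.57 there (adjusted p = 0.062). The mean of the 8 epithelial markers was 11.3 to 11.5 on all untreated and 12.1 to 12.4 on all treated arrays. Its members did not move together. Of 7 tested, *KRT20*, a keratin of differentiated colonocytes, rose by 4.08 (adjusted p = 0.00031) and 4.26 (adjusted p = 0.00042) in the control and knockdown clones, and *KRT18* by 0.61 in the control clones (adjusted p = 0.043). *EPCAM* and *KRT8* fell in the control clones by 0.89 and 0.75 (adjusted p = 0.042 for both), and the medians were −0.15 and 0.40. Other tested probes did not pass in the control clones. They changed by −0.35 (adjusted p = 0.19) and 0.30 (adjusted p = 0.33) for *KRT8* and by −0.03 (adjusted p = 0.90) for *KRT18*. The part of other cell types in the members' changes was not tested.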

How the data were processed

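Total RNA of 4 HCT116 clones, each untreated and treated, was amplified, labeled and hybridized to 8 SurePrint G3 arrays by the authors. The deposited files hold the spot intensity that Feature Extraction 10.7.3.1 wrote, background-subtracted and not normalized between arrays, with flags for spots above background and outliers. The series table holds the same intensity values, rounded. The authors used GeneSpring and chose probes with t tests under a Benjamini-Hochberg correction, and the normalization is not given in the sources used here. Positions are the hg19 probe positions of the files.

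Here intensity values were divided by each array's 75th percentile, floored at 1 and put on a log2 scale. Outlier spots were left out and spots of a probe averaged, giving 50543 probes with a value on all arrays. A probe was tested when above background (at least 0.5 of its spots) on both arrays of a condition. Condition means were fitted to all 8 arrays in limma 3.58.1 (R 4.3.3), two-sided, with Benjamini-Hochberg adjustment over 27286 probes at 0.05. Statistics of a gene come from its tested probe of highest mean. Named genes were all members, *TET1*, and per list up to 3 called genes of largest change in the control clones and up to 2 of the brightest not called. Others named (such as *FOXH1*, *SOX9*, *GATA2*, *NODAL*, the markers and undetected genes) were chosen after their values were seen. Some genes of the lists are counted but not reported here by name. Members and lists were chosen with earlier results of these data known. The fit was tested on simulated arrays. Arrays of a clone pair by name, and their deviations from the condition means correlated at 0.20 (control) and 0.48 (knockdown) over the tested probes. The 2 clones per condition limit the precision.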

Additional observations from a re-analysis of the deposited data

Results flagged for a closer look

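Among the genes followed here, *MUC2* and *AMN* changed differently with 5-aza-dC in the 2 kinds of clone by the interaction test. *MUC2*, which encodes the main mucin of goblet cells, read 6.91 and 7.13 in untreated and 4.40 and 3.84 in treated control clones, and 6.83 and 6.14 against 5.65 and 5.91 in the knockdown clones. The difference in response, knockdown minus control, was 2.19 ± 0.42 (SE, limma adjusted p = 0.040), and a second probe gave 2.28 (limma adjusted p = 0.047). *AMN* fell in the control clones and changed by −0.05 in the knockdown clones, a difference of 1.39 ± 0.26 (limma adjusted p = 0.038). Since slide 2 held just the arrays of treated control clones, for these differences slide and kind of clone cannot be told apart. The treated control arrays were not above background for *MUC2*, so the size of its difference was not measured. The *MUC2* difference did not pass with the clone as a replicate block (2.19, adjusted p = 0.070), with normexp (0.61, adjusted p = 0.20), the GC trend subtracted (1.78, adjusted p = 0.086), the offset of 50 (0.99, adjusted p = 0.061) or no filter (adjusted p = 0.078). The *AMN* difference passed with the block (adjusted p = 0.039), and did not with the GC trend subtracted (0.58, adjusted p = 0.18) or no filter (adjusted p = 0.078). Leaving out any 1 array ended both calls (adjusted p up to 0.14 for *MUC2* and from 0.059 to 0.15 for *AMN*), other than that of *MUC2* without treated CONT1 (adjusted p = 0.048). Groups of 2 arrays are too small for a test of single outlying arrays.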

How the results depend on the processing

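*SOX17* and *GATA5* kept their rise and their call in the control clones under all 19 alternatives that measured them, with log2 changes of 2.26 to 6.04 and 2.62 to 6.38. The lowest came from normexp background correction, which adds an offset to dim signals and so shortens changes from background. Of 452 member results under alternatives, 411 kept direction and side of the threshold, 21 lost and 3 gained the call and 17 changed sign. With the filter that a probe be above background everywhere, *SOX17*, *GATA4*, *GATA5* and *FOXA2* were not tested and 0 members were called in either kind of clone. The methods' t-test called 4162 probes in the control clones and 0 probes and 0 members in the knockdown clones. With 4 arrays per fit 1 member was called in the knockdown clones, among 1687 probes.

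Probes called in the knockdown clones numbered 1191 when above background on all arrays and 6138 with the GC trend subtracted. For untreated knockdown against control clones 4 probes were called, and 1 with normexp, with the filter on all arrays, with the offset of 50 and by the methods' t-test, 2 with no filter and 0 with 4 arrays per fit. The difference in response called 1522 probes, 829 with normexp, 715 with no filter, 2469 with the spike-in interpolation and 744 with the GC trend subtracted. Leaving out 1 array at a time gave 6365 to 11526 probes in the control clones, 1764 to 3106 in the knockdown clones, 0 to 34 untreated and 47 to 1264 for the difference in response, with 2 to 3, 2 to 3, 0 and 0 to 1 members.

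The clone as a replicate block called 3 members in each kind and 0 probes between untreated kinds. It ended the *GATA6* call (0.84, adjusted p = 0.058) and brought a *FOXA2* call (4.0, adjusted p = 0.013) in the knockdown clones. It changed no other member's call.

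Sign changes were confined to values that were not called. *FOXA1* in the control clones was −0.14 with the GC trend subtracted, and with normexp the untreated differences were −0.19 for *SOX17*, −0.19 for *GATA5* and −0.015 for *GATA6*. Without 1 array these ranged from −0.046 to 0.34, −0.047 to 0.33 and −0.027 to 0.091, and from −1.58 to 1.14 for *FOXA2*. The difference in response ranged from −1.65 to 0.41 for *GATA4*, −0.17 to 1.10 for *FOXA1* and −1.45 to 1.27 for *FOXA2*. The cause was not tested.

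Called probes were 45.9% higher in the control clones, 32.1% with the spike-in interpolation and 35.7% with the GC trend subtracted. In the knockdown clones 75.5% were higher, and 37.9% with the GC trend, 64.3% with normexp, 65.3% with quantile normalization and 62.0% with the offset. For the difference in response 72.1% were positive, and 52.2% with normexp, 86.4% with the spike-in interpolation, 61.6% with the GC trend and 57.3% with the offset. The spike-in interpolation moved the median of all probes in the control clones from −0.08 to −0.31, and the GC trend moved it to −0.23, and to −0.31 in the knockdown clones.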
